A study of Mus musculus with 2 samples.

Results

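The miR-15/16 family is a set of miRNAs whose guide strands have the same seed, the stretch of bases 2 to 8 that pairs with target mRNAs. The 10 members studied here also include passenger strands of the same hairpins, which have other seeds. They were picked by exact probe name among 1900 mouse miRNA probes. There were 6 guide strands (mmu-miR-15a-5p, mmu-miR-15b-5p, mmu-miR-16-5p, mmu-miR-195a-5p, mmu-miR-322-5p and mmu-miR-497a-5p) and 4 passenger strands (mmu-miR-15a-3p, mmu-miR-15b-3p, mmu-miR-16-1-3p and mmu-miR-322-3p), named below without the prefix mmu for mouse. The choice went by name, not by measured value, but was made with earlier results of these data known.

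RNA came from colonic epithelial cells of C57BL/6 mice aged 8 weeks, and 1 array was hybridised for each of 2 conditions. One was an untreated control, and the other was colon inflammation from dextran sulfate sodium (DSS), a polymer toxic to the gut lining, dosed at 2.5% in drinking water over 5 days. The labels name no other allele or agent and do not say whether cells of several mice were pooled. With 1 array per condition no difference has a replicate check, so no test, p-value or standard error is given, and precision is limited by having 2 arrays. In such bulk RNA, a change in the mix of cells and a change in RNA per cell cannot be told apart.

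Guide strands of this family act as brakes on the cell cycle. They repress mRNAs of cyclins, cyclin-dependent kinases and other drivers of the G1 to S transition, and also the survival factor Bcl2. miR-15a and miR-16 were first tied to disease through their loss in human chronic lymphocytic leukaemia. A miRNA hairpin is cut into 2 arms, of which the guide is loaded into the Argonaute protein and kept, while most copies of the passenger are degraded. Both arms come from 1 transcript, and hairpins of 1 cluster are usually transcribed together.

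The guide strands are shown because they explain which probes could see each other's targets. The sequences, from RefSeq's table for GRCm38.p6, cover all 10 members, and capitals mark bases 2 to 8.
miR-15a-5p: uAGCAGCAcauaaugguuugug
miR-15b-5p: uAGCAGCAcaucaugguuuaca
miR-16-5p: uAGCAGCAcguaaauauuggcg
miR-195a-5p: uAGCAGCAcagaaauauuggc
miR-322-5p: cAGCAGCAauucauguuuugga
miR-497a-5p: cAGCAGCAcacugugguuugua
All 6 guides share the seed AGCAGCA, and 9 of their first 21 positions are identical in all of them. Counted from 1 at the 5′ end, miR-16-5p and miR-195a-5p differ at 2 of 21 positions (G10A and U11G, miR-16-5p first). miR-15a-5p and miR-15b-5p differ at 4 of 22 positions (A12C, G20A, U21C and G22A, miR-15a-5p first). How far a probe also bound such a relative was not tested.

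The passenger strands are shown because they tell the hairpins apart, and none of them has the seed of the guides.
miR-15a-3p: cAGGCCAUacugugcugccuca
miR-15b-3p: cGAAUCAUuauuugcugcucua
miR-16-1-3p: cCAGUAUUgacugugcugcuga
miR-16-2-3p: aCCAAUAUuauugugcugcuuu
miR-322-3p: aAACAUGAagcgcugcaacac
The 4 passenger members have 4 different seeds. miR-16-2-3p is not among the 10 members but is the other arm of a member's hairpin, and it differs from miR-16-1-3p at 10 of 22 positions.

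The hairpins lie at 4 places in GRCm38.p6. Mir15a (chr14:61632027-61632110, minus strand) and Mir16-1 (chr14:61631880-61631972, minus strand) are 54 bases apart within the lncRNA gene Dleu2. Mir15b (chr3:69009772-69009835, plus strand) and Mir16-2 (chr3:69009902-69009996, plus strand) are 66 bases apart within Smc4, which encodes a condensin subunit. Mir497 (chr11:70234717-70234800) and Mir195a (chr11:70235042-70235135) are 241 bases apart on the plus strand. Mir322 (chrX:53054255-53054349, minus strand) lies within the lncRNA gene C430049B03Rik. Mir16-1 and Mir16-2 both give the same miR-16-5p, so that its single probe reports the sum of both clusters. The Mir15b hairpin is printed whole because the values below turn on its 2 arms, which are in capitals.
Mir15b: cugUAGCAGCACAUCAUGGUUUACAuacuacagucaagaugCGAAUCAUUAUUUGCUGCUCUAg

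Brightness is given over blanks, that is after taking the mean of an array's blank spots from each spot. A probe counted as measured when it exceeded 2 SD of the blanks, or 6.98 (control) and 9.06 (DSS). Both arrays measured 995 of 1899 unflagged probes (52.4%). Dim probes were hard to separate from control spots. The 32 negative control spots reached 18.4 (control) and 34.7 (DSS), and their brightest set had a mean of 13.2 (Negative Control 3, control array) and 15.8 (Negative Control 1, DSS array). Spike control spots were about 2-fold brighter on the DSS array (log2 ratios of 1.04 and 0.91). Of 8 epithelial miRNAs, which mark the labelled cell type, the control array measured 7 and the DSS array 8, but 5 of 6 mesenchymal and 2 of 3 erythroid miRNAs were also measured on each. Levels of different probes are not ranked here, since each binds with its own strength.

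Of the 10 members 3 were measured on both arrays, all of them guides: miR-16-5p, miR-15b-5p and miR-15a-5p. The control array alone measured miR-195a-5p, and the DSS array alone measured miR-497a-5p and miR-15b-3p. The other 4 (miR-322-5p and the passengers miR-15a-3p, miR-16-1-3p and miR-322-3p) were measured on neither, as were 34.5% of all probes. The family was thus near the limit of this array, and only miR-16-5p exceeded every negative control spot on both arrays, as 29.0% of all probes did.

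**Figure D1:**
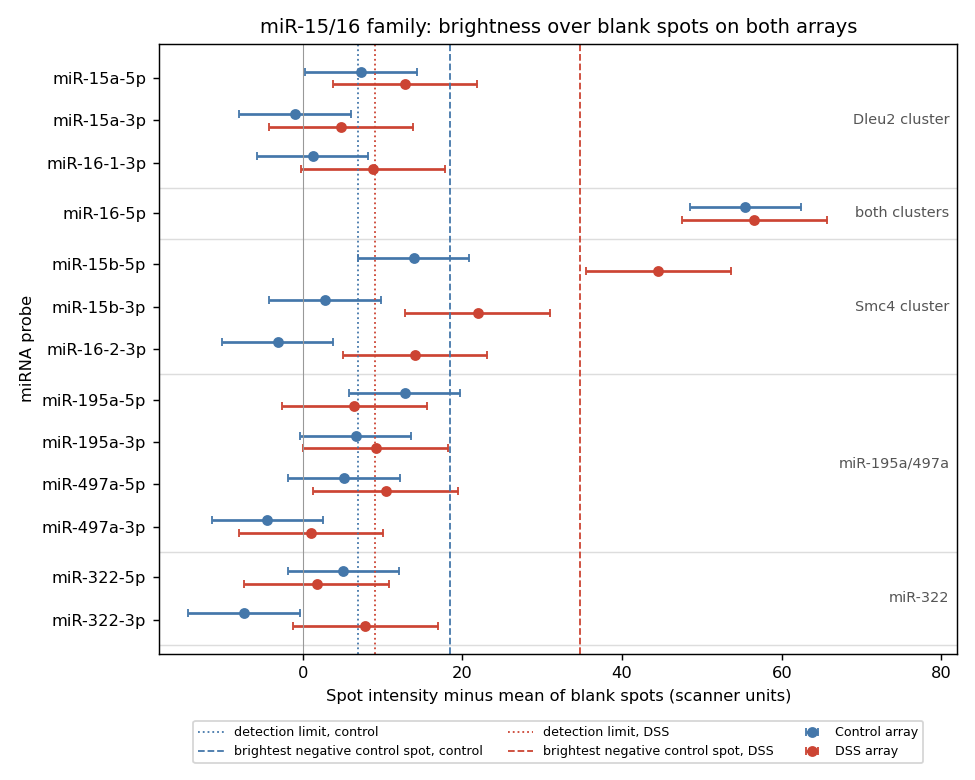
Brightness over blanks (scanner units) for the 10 members and the 3 other arms of their hairpins, grouped by cluster, with the control array in blue and the DSS array in red. Bars span 2 SD of the blank spots, dotted lines are the detection limits, and dashed lines are the brightest negative control spot of each array. miR-16-5p sits at 55.4 and 56.5, and miR-15b-5p moves from 13.9 to 44.6.

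miR-16-5p, made by both the Dleu2 and the Smc4 cluster, was nearly as bright on one array as on the other. It stood 55.4 (control) and 56.5 (DSS) over blanks, a ratio of 1.02 before any scaling. No blank spot of 896 was as bright on either array. After correction with an offset of 50 and quantile normalisation its log2 values were 6.81 and 6.98, a difference of 0.18 (1.13-fold, DSS over control). Of the 995 miRNAs 205 had a larger difference. In the authors' table, which scales each array and carries no offset, it went from 31.2 to 44.5, or 1.43-fold. The ends of the 2 SD bands put this fold between 1.06 and 1.89, which covers the spread of blank spots only. With scaling to the array median the difference was −0.05, and with scaling to the spike controls −0.92, so its direction depends on the scaling.

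miR-15b-5p, of the Smc4 cluster, had the largest difference of the 3 guides measured on both arrays. It stood 13.9 (control) and 44.6 (DSS) over blanks, a ratio of 3.20 before scaling. On the DSS array no blank spot and no negative control spot was as bright. On the control array 10 of 896 blanks and 3 of 32 negative control spots were as bright or brighter, so the control level is barely above the background. The normalised log2 values were 6.26 and 6.81, a difference of 0.55 or 1.46-fold, and 36 of 995 miRNAs had a larger one. The authors' values were 7.83 and 35.1, a 4.48-fold difference (log2 2.16) that 1 of the 995 miRNAs, miR-150-5p, exceeded. The ends of the 2 SD bands put this fold between 2.38 and 10.8. That range covers the spread of blank spots only, not that of the negative control spots. It also includes the authors' factors of 0.563 (control) and 0.787 (DSS), which by themselves raise the fold. Against the blanks of its own block on the array it stood at 17.4 and 48.4, and the normalised difference was as large (0.56).

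The normalised difference of miR-15b-5p was positive under each setting tried except scaling to the spike controls. There it was −0.43, while the median of all miRNAs stood at −1.03. That spike factor was computed without the offset but applied to values with the offset. Probes at the level of the blanks were thus lowered too, such as miR-15a-3p (−0.77), which was measured on neither array. The unscaled ratio of miR-15b-5p, 3.20, was above that of the spike controls (log2 ratios of 1.04 and 0.91). Those of miR-16-5p (1.02) and miR-15a-5p (1.76) were below it, so both of these guides were lower relative to the spike controls. Relative to each setting's median of all miRNAs, each of the 3 guides measured on both arrays was higher under all 12 settings. The excess was 0.10 to 1.95 for miR-15b-5p, 0.08 to 0.38 for miR-16-5p and 0.03 to 1.09 for miR-15a-5p. For miR-15a-5p the low end was under its noise of 0.11 from 1 SD of the blanks. All settings reuse the same arrays, so their number is no replication. The low end for miR-15b-5p came from taking off the files' local background. That background was 116.5 on the control array, above the spot's own intensity of 106.6, and 163.6 on the DSS array beside a spot of 166.3.

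miR-15a-5p, the guide made only by the Dleu2 cluster, was measured on both arrays but stayed within the range of the control spots. It stood 7.29 (control) and 12.8 (DSS) over blanks, and 12 of 32 negative control spots were as bright on each array. The normalised difference was 0.05, with 397 of 995 miRNAs above it. The authors' values were 4.10 and 10.1 (2.46-fold), but the 2 SD bands allow any fold from 0.37 to 97.1. No direction can be read from this probe.

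None of the 3 guides measured on both arrays passed 2-fold after normalisation, while 0.503% of all miRNAs passed it upwards and 1.01% downwards. All 3 had positive differences (2 with scaling to the array median and 0 with scaling to the spike controls), as were 48.5% of all miRNAs. All 3 were also higher by the authors' values, as were 63.9% of all miRNAs. By those values 2 of the 3 (miR-15b-5p and miR-15a-5p) were at least 2-fold higher, against 8.94% of all miRNAs, and 0 were at least 2-fold lower, against 4.12%. Both were dimmer than the median miRNA, and 15.7% of miRNAs below that median were at least 2-fold higher, against 2.21% of those at or above it. The median log2 difference of the authors' values was 0.46 among the dimmer and −0.02 among the brighter miRNAs.

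**Figure D2:**
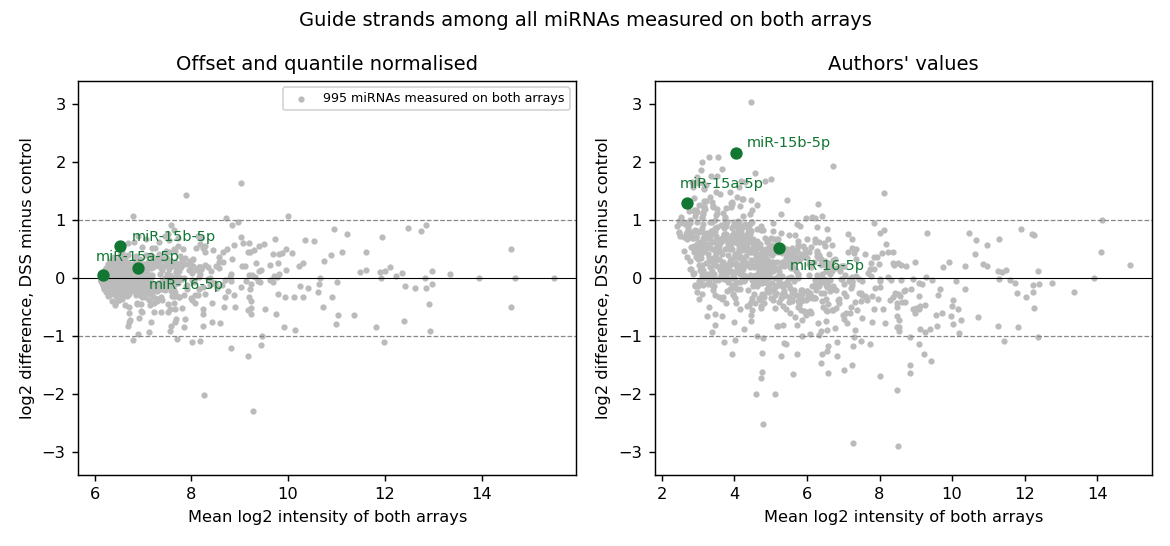
Log2 difference (DSS minus control) against the mean log2 intensity of both arrays for 995 miRNAs measured on both (grey), after offset and quantile normalisation (left) and in the authors' table (right). Green points are the 3 guides of the family and dashed lines mark 2-fold. miR-15b-5p is at 0.55 on the left and at 2.16 on the right.

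The arms set the clusters apart only by what the dim probes allow. From the Smc4 cluster, miR-15b-3p, the passenger of miR-15b, stood 2.80 (control) and 21.9 (DSS) over blanks. It was measured on the DSS array only, where 4 of 896 blanks and 3 of 32 negative control spots were as bright. Its quantile normalised value was at least 1.19-fold higher there (log2 0.25), a bound set against the lowest value measured on the control array. That bound holds for this normalisation only. Under the alternatives the log2 difference of miR-15b-3p ran from −0.54 (scaling to the spike controls) to 2.32 (blank mean subtracted, no offset). The noise from 1 SD of the blanks was 0.11 in log2. Its authors' value was 17.2, against 3.94 for the lowest value listed on the control array. With the blanks of its own block it stood at −2.20 and 21.7. Both arms of the Mir15b hairpin shown above thus stood further over blanks with DSS.

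The other passenger of that cluster, miR-16-2-3p, stood at −3.13 and 14.1, above the limit only with DSS and there under the mean of the brightest negative control set. Its bound of 1.06-fold (log2 0.09) was smaller than the noise from 1 SD of the blanks (log2 0.12), so it sets no minimum. From the Dleu2 cluster, miR-15a-3p stood at −0.97 and 4.79 and miR-16-1-3p at 1.26 and 8.80, and neither was measured on either array. Of the probes for miRNAs made by 1 of these clusters alone, the DSS array measured 3 of 3 for Smc4 and 1 of 3 for Dleu2. Of all probes it measured 61.6%. Binding of a probe to the other cluster's miRNA was not tested, and miR-15a-5p and miR-15b-5p share 18 of 22 positions. The DSS value lay clear of the control value, with 2 SD bands that do not overlap, for all 3 probes of the Smc4 cluster (miR-15b-5p, miR-15b-3p and miR-16-2-3p). This held for 0 of the 3 probes of the Dleu2 cluster, and for no other member or arm of a member's hairpin. Among all probes 4.05% had such a clear gap upwards, and among the 357 probes for 3p arms that the control array did not measure 3.36%. This comparison of bands was chosen after the values were seen, uses unscaled brightness and covers only the spread of blank spots. Negative control sets shifted as well. The mean of Negative Control 1 went from 4.31 (control) to 15.8 (DSS) over blanks, and that of Negative Control 2 from −3.93 to 2.23. Negative Control 3 went the other way, from 13.2 to 9.58. The difference between the clusters was not tested.

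The direction alone says less. All 4 passenger members, and all 3 other arms of the members' hairpins on the array, were brighter over blanks on the DSS than on the control array. Of all probes 52.2% were. Such a shift was more common among dim probes. Of 357 probes for 3p arms that were not measured on the control array, 79.6% were brighter over blanks on the DSS array, so the direction of these 7 arms is no result about the family. Of the 10 members 2 were measured on the DSS array only, against 9.16% of all probes, and 1 on the control array only, against 3.95%.

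The cluster of miR-195a and miR-497a, which is expressed in muscle and other mesenchymal tissue among others, gave 2 guides near the limit. miR-195a-5p stood 12.8 (control) and 6.47 (DSS) over blanks. On the control array 12 of 896 blanks were as bright. miR-497a-5p stood at 5.19 and 10.4, with no fold above 1 once the lowest measured control value was used as its bound. The other arms, miR-195a-3p at 6.62 and 9.13 and miR-497a-3p at −4.42 and 1.06, added no measured difference. The 2 SD bands of the control and DSS values overlap for each of these 4 probes, so no direction can be read.

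miR-322 (miR-424 in humans), which is transcribed with miR-503 and promotes cell cycle exit in differentiating muscle cells, was not detectable in either arm. miR-322-5p stood 5.10 (control) and 1.75 (DSS) over blanks, and miR-322-3p at −7.33 and 7.83. Of 9 further probes for miRNAs of the same X-linked cluster, 2 were measured on both arrays, both from miR-351. miR-351-5p stood at 186.9 and 151.3 over blanks, with a normalised difference of 0.23 and authors' values of 105.2 and 119.1. miR-351-3p stood at 19.1 and 15.7, with a difference of −0.06. miR-503-5p, at 2.56 and 11.4, passed the limit only with DSS, and the other 6 on neither array.

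A further 4 probes on the array carry the family's seed by RefSeq sequence, namely miR-195b, miR-6342, miR-6353 and miR-6419. Only miR-6419 was measured on both arrays, at 10.4 and 17.2 over blanks, with a normalised difference of 0.11 and authors' values of 5.85 and 13.6. It shares 14 of 22 positions with miR-322-5p, which was not measured. miR-6342 (−0.85 and 10.5) passed the limit only with DSS, and miR-195b and miR-6353 on neither. miR-195b differs from miR-195a-5p at 3 of 21 positions (U17G, G19A and C21A, miR-195a-5p first).

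The 3 measured guides had a median normalised difference of 0.18, beside −0.003 over all 995 miRNAs. Among other conserved families, 8 of 10 let-7 and miR-98 guides were measured on both arrays, with a median of 0.28, and 4 of 5 miR-30 guides, also with 0.28. Of 14 guides of the miR-17-92 and paralogous clusters, which promote rather than restrain proliferation, 8 were measured on both arrays. Their median was −0.01 and their highest value 0.13. By the authors' values, which carry no offset, the miR-17-92 median was 0.56, near those of let-7 and miR-98 (0.67) and miR-30 (0.60). On that scale the median was 1.30 for the 3 guides of the miR-15/16 family and 0.21 over all 995 miRNAs. No difference between families was tested.

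Epithelial miRNAs had 7 of 8 measured on both arrays, all higher on the DSS array after normalisation, with a median of 0.43. The authors' values of these 7 summed to 515.6 (control) and 733.2 (DSS). This sum and those below include the authors' factors of 0.563 (control) and 0.787 (DSS), which by themselves raise the DSS side. Over blanks, miR-200a-3p and miR-200b-3p were dimmer on the DSS array and the others of these 7 brighter. Of 6 leukocyte miRNAs 3 were measured on both arrays, all higher, with a median of 0.24. Their authors' values summed to 28.8 (control) and 109.3 (DSS), of which miR-150-5p gave 7.68 and 63.4. miR-142a-5p passed the limit only with DSS, and miR-155-5p and miR-142a-3p were measured on neither. Of the leukocyte list miR-150-5p, a lymphocyte miRNA, was the 1 miRNA at least 2-fold higher (1.07). Of 3 erythroid miRNAs 2 were measured on both arrays, with a median of 0.46 and sums of 49.2 and 103.3, and miR-451a differed by 0.73 while miR-144-3p was not measured. Mesenchymal miRNAs had 5 of 6 measured on both, a median of 0.06 and sums of 577.6 and 640.8. Over blanks all 5 were dimmer on the DSS array except miR-199a-3p, and the brightest, miR-145a-5p, stood at 561.6 (control) and 466.6 (DSS). The endothelial miR-126a-3p differed by −0.06. Leukocytes and red cells also carry miR-15 and miR-16, and the part of these cells in the difference of miR-15b-5p was not tested.

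**Figure D3:**
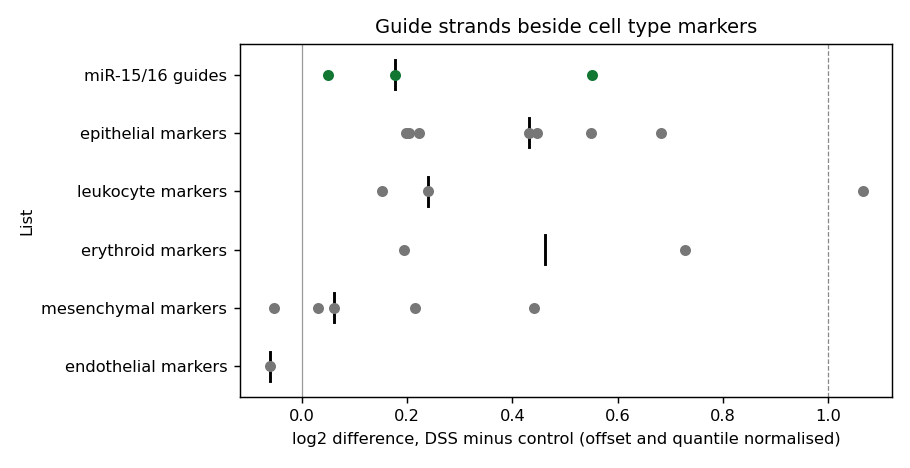
Log2 differences (DSS minus control, after offset and quantile normalisation) of the 3 guides of the family measured on both arrays and of the markers of 5 cell types measured on both. Each point is 1 miRNA, black bars are medians, and the dashed line marks 2-fold. The guides lie between 0.05 and 0.55, with miR-150-5p at 1.07 the only point past 2-fold.

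With 2 arrays a pattern is only a pair of values. By Euclidean distance over the 2 normalised log2 values, miR-6395 (0.02), let-7f-5p (0.02) and miR-5113 (0.03) lay nearest to miR-16-5p, which had 20 miRNAs within a distance of 0.1. Nearest to miR-15b-5p were miR-215-5p (0.08), of gut epithelium, miR-6541 (0.09) and miR-7672-3p (0.11), and 2 lay within 0.1. The pair of values of miR-15b-5p was thus shared by fewer miRNAs than that of miR-16-5p.

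**Figure D4:**
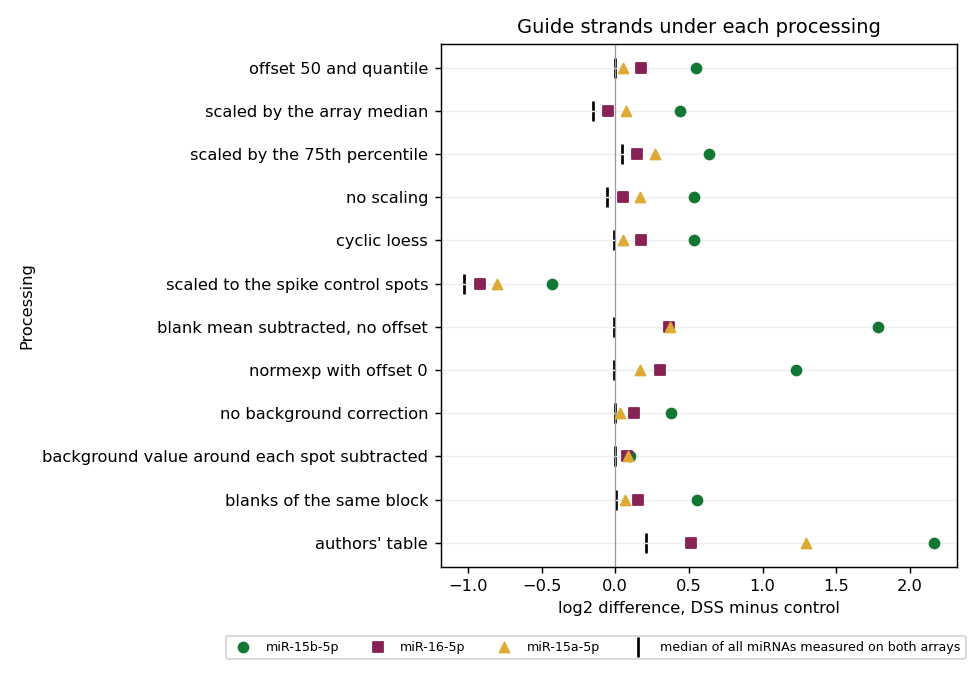
Log2 difference (DSS minus control) of the 3 guides measured on both arrays under 12 ways of processing, with black ticks for the median of all 995 miRNAs. All 3 guides lie right of the tick in each of the 12, which reuse the same arrays and are no replicates. miR-15b-5p runs from −0.43 with scaling to the spike controls to 2.16 in the authors' table.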

How the data were processed

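Total RNA was labelled with Hy5 per the labels' protocols and hybridised in 1 colour. The deposited scanner files give the median spot intensity at 635 nm, combined from 3 gains per the file headers. The authors' table holds 1 intensity per probe on a linear scale. It equals spot intensity minus the trimmed blank mean (5% of 896 blanks left out at each end), times 0.563 (control) or 0.787 (DSS), with probes at or under that mean plus 2 SD left empty. This rule was found from the values, and no source used here states it. The array's maker and scanner software: not given in the sources used here.

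Spot intensities were corrected with normexp (limma 3.58.1, R 4.3.3; offset 50, fitted on all spots), log2 transformed and quantile normalised over miRNA probes. The local background of the files was left in, since it tracked the brightness of its spot (Spearman's rho across probes 0.880 and 0.699). The median brightness of measured probes was 44.4 (control) and 31.8 (DSS) over blanks. Of 1900 probes, 1 flagged at scanning was dropped. A probe measured on 1 array has only a bound. The offset shrinks folds of dim miRNAs. The procedure was tested on simulated data, where only probes brighter than the median of those with signal were scored. It therefore does not cover members near the detection limit.

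The alternatives were 4 scalings, no scaling, 4 background corrections, the authors' table, 3 filters and a 1.5-fold threshold. A correction by the blanks of each block was added after seeing the data. The members, lists and alternatives were chosen with earlier results of these data known. Named miRNAs were all members, probes with the same seed, other arms of the same hairpins, miR-322's cluster, and the 3 nearest miRNAs to miR-16-5p and miR-15b-5p.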

Additional observations from a re-analysis of the deposited data

How the results depend on the processing

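The median difference of the guides measured on both arrays was 0.18 and kept its sign under every alternative except scaling to the spike controls (−0.80, where all miRNAs had a median of −1.03). It was 0.073 with scaling to the array median, 0.27 with the 75th percentile, 0.37 with blank subtraction and no offset, 0.30 with an offset of 0 and 1.30 in the authors' table. It was 0.36 both with a limit of 3 SD and with only probes above every set of negative controls (2 guides each), and 0.038 with no filter (6 guides). The 3 guides higher on the DSS array became 0 with scaling to the spike controls. That scaling applied a factor computed without the offset to values with the offset, which also lowers probes at the level of the blanks. The count of members at least 2-fold higher was 0, but 1 with blank subtraction, 1 with an offset of 0 and 2 in the authors' table. The count at least 2-fold lower was 0 under each alternative. No paired analysis was possible because each group holds 1 array. Of 103 differences of single members under alternatives, 46 lay within 1 SD of the blank spots from the first value and 57 further away; the cause was not tested. Signal over background limits all members except miR-16-5p on both arrays and miR-15b-5p on the DSS array.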
